A study of Rattus norvegicus with 8 samples.

Results

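Epoxide hydrolases and carbonyl reductases detoxify reactive compounds that other liver enzymes, above all the cytochromes P450, produce. The 7 genes described here, of 15168 named genes on the arrays, were chosen by name: Ephx1 and Ephx2, Akr7a2, Akr7a3 and Akr1a1, and Cbr1 and Cbr3. Each was matched to 1 of the 30367 probes. Names were assigned by matching the accession of each probe to a RefSeq gene table. Only 18005 probes were named in this way, so the unnamed ones could include further probes of these genes. Of the 7 genes, 6 had a liver signal well above background and were tested, and Cbr3 did not. From general knowledge of these enzymes, Ephx1, Akr7a3 and Cbr3 were taken as inducible through the regulators of foreign-compound response named below. Ephx2, Akr7a2, Akr1a1 and Cbr1 were taken as constitutive with respect to those regulators only. The division is an assumption, and whether these regulators act on any of the genes was not tested. That division did not use the values measured here, but the genes had been chosen with earlier results of these data known.

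The livers came from 21-day-old male Sprague-Dawley rats that had stayed with their birth mothers. Dams of the control group received corn oil. Dams of the mixture group received methyl mercury, polychlorinated biphenyls and organochlorine pesticides at 0.5 mg/kg/day. The same dams also received non-ortho polychlorinated biphenyls, dibenzodioxins and dibenzofurans that activate the aryl hydrocarbon receptor (AhR), giving 6.3 ng/kg/day of dioxin equivalents. The study's exposures covered gestation and lactation, and the pups were exposed through their mothers. Each array held pooled liver RNA of 2 pups, so 8 pups gave 4 arrays in each group, and the pools of a group were taken as its replicates. The labels do not say which pups shared a litter, and the p-values therefore measure only the spread between these pools. The study had 72 arrays, and those of its other groups and ages were not analysed here, so the parts of the mixture cannot be told apart. All 10 listed hepatocyte markers were well above background.

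Liver RNA was labelled with Cy5. A reference RNA, made from 14 rat cell lines and the same on every array, was labelled with Cy3, and a level is given here as the log2 ratio of the liver signal to the reference signal. In Cy5 the share of spots well above background ran from 42.9% to 49.2%, and no spot was saturated. Precision is limited by the number of arrays. A single slide held the 8 arrays in 2 columns, with 2 arrays of each group in each column. The columns differed for 6505 of the 11406 tested probes at an adjusted p under 0.05 in limma. The comparison of the groups was therefore fitted with slide column as a block, and the values without it and within each column are given beside it.

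In background knowledge, epoxide hydrolases add water to a strained epoxide ring and turn it into a diol. Aldo-keto reductases and the short-chain carbonyl reductases use NADPH to turn aldehydes and ketones into alcohols. In rodent liver, some of these genes are switched on by the regulators that sense foreign compounds: the constitutive androstane receptor (CAR), the pregnane X receptor (PXR), the AhR, and NRF2, which responds to electrophiles. Akr7a2 and Akr7a3 are neighbours on one rat chromosome, and Cbr1 and Cbr3 lie close together on another.

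The comparison asked whether these genes had other levels in pups of mixture-treated dams than in pups of vehicle-treated dams, and whether inducible members differed more than constitutive ones. Akr7a3 rose 2.43-fold in the mixture group and was the 1 member of 6 to pass an adjusted p of 0.05 in limma, against 0.0789% of the 11406 probes tested (9 probes, all higher in the mixture group). Ephx1 was 1.97-fold higher and missed the threshold. The 4 constitutive members lay between 0.936-fold and 1.22-fold of control, and none passed. Of the 6 tested members 5 were higher in the mixture group, against 46.9% of all tested probes, and 3 had an unadjusted p under 0.05, all of them higher, against 3.52% of probes higher and 2.86% lower. The call for Akr7a3 rested on fitting slide column, among other choices. Without slide column, 0 members passed in limma, against 0.00877% of the probes tested, and 3 had an unadjusted p under 0.05, against 1.52%. With slide column fitted, the call was still lost in 6 of the 8 fits without 1 array and under several other processing choices, given below.

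**Figure D1:**
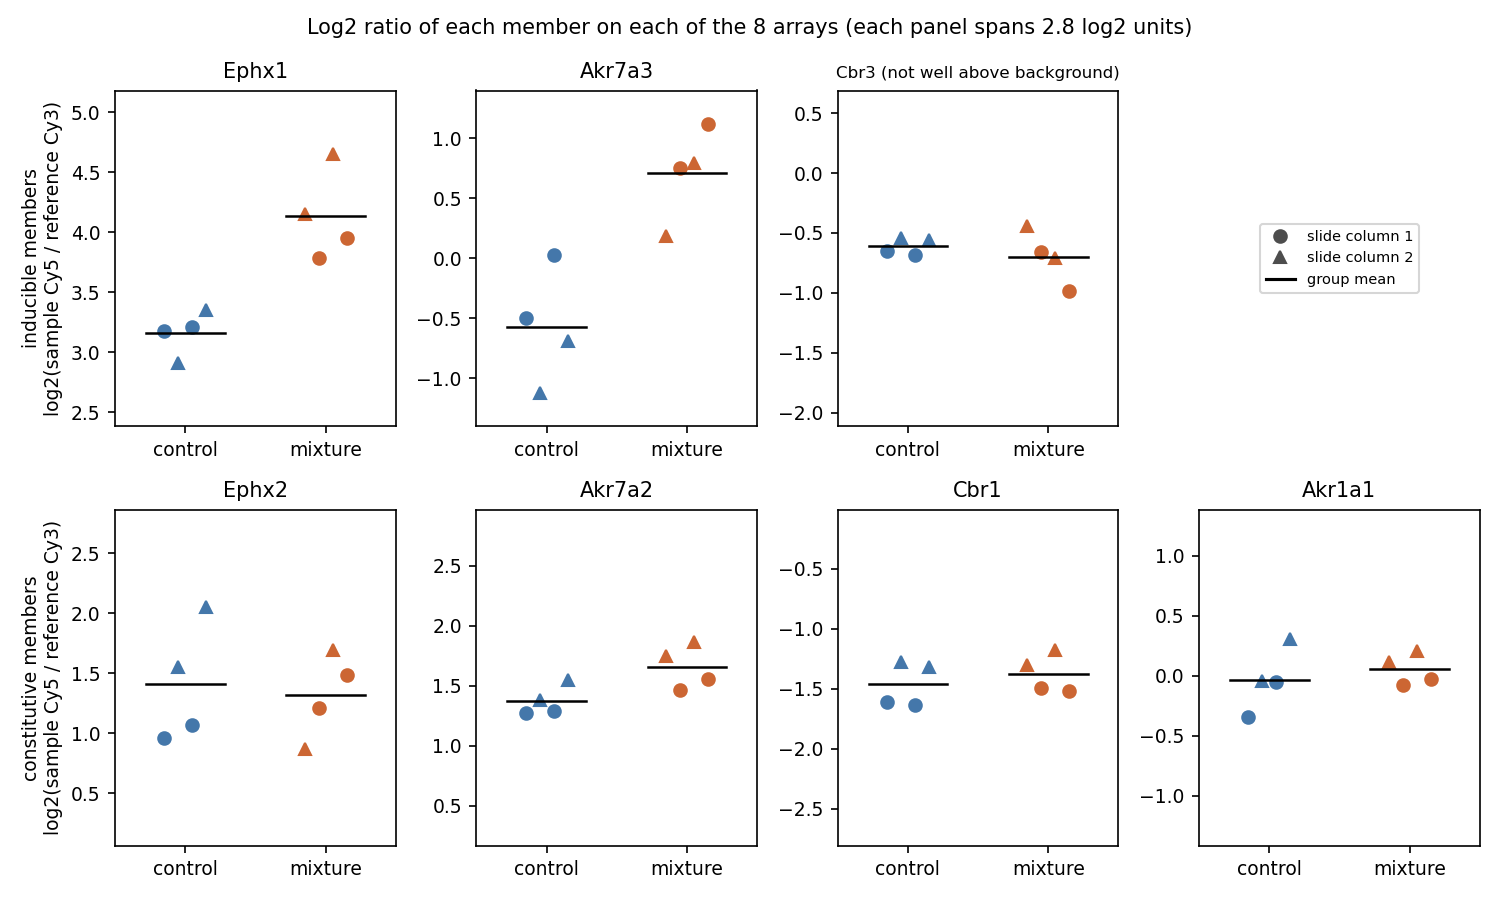
Log2 ratio of liver Cy5 to reference Cy3 (y axis, each panel spanning the same range) for each of the 7 genes in the 4 control and 4 mixture arrays; circles are slide column 1, triangles slide column 2 and lines the group means. For Ephx1 and Akr7a3 the lowest mixture array lies above the highest control array, and for the other 5 genes the groups overlap.

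The DNA upstream of the transcription start is shown for the members whose comparison the results turn on: Akr7a3, its neighbour and paralog Akr7a2, Ephx1 with both of its annotated starts, and Cbr1 as a constitutive member with AhR-type motifs. The sequences are from RefSeq, build GRCr8, and cover the 250 bases before each start, 5′ to 3′ on the strand of the gene. Capitals mark matches on either strand to 3 motifs: GCGTG, the core of the element bound by the AhR, TGACNNNGC, the core of the antioxidant response element bound by NRF2, and AGGTCA, the hexamer recognised by many nuclear receptors.

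Akr7a3, chr5:156876471-156876720, plus strand: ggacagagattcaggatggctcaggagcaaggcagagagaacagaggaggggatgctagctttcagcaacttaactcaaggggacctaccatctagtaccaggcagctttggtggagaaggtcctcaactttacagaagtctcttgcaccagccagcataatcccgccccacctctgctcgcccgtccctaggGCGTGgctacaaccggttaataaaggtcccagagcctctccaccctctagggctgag
Akr7a2, chr5:156835339-156835588, plus strand: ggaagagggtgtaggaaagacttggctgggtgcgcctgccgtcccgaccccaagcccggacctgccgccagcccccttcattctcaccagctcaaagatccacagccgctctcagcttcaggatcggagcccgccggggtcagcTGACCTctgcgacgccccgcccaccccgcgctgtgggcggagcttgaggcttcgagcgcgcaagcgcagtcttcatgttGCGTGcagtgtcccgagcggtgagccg
Ephx1, first start, chr13:95275853-95276102, minus strand: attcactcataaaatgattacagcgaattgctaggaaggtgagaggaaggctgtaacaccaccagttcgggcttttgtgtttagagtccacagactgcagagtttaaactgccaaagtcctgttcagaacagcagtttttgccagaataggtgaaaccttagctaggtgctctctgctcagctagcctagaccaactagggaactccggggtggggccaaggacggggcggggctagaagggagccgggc
Ephx1, second start, chr13:95263118-95263367, minus strand: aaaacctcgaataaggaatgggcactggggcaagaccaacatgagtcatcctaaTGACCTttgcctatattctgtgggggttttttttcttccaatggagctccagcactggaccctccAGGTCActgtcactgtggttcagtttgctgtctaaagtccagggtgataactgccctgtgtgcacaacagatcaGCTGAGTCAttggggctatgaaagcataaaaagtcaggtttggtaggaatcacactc
Cbr1, chr11:46346155-46346404, plus strand: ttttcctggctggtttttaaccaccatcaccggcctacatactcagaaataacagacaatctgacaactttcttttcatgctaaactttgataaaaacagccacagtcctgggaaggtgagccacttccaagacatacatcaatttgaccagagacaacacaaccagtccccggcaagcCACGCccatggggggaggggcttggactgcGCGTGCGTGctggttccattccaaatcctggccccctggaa

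Akr7a3 held 1 AhR-type core at -57 to -53 from its start, and Akr7a2 held 1 at -27 to -23 and 1 AGGTCA hexamer at -106 to -101. The first Ephx1 start had no match. The second Ephx1 start had an antioxidant-type core at -57 to -49 and AGGTCA hexamers at -196 to -191 and -131 to -126, none of which overlapped. Cbr1 had 3 AhR-type cores, at -71 to -67, -41 to -37 and -37 to -33, the last pair sharing 1 base. Among 33469 rat promoters of the same length, 25.9% held GCGTG, 10.1% TGACNNNGC and 14.1% AGGTCA. A match describes letters only and is not a binding site. The windows of Akr1a1 and Cbr3 had no match, and 6 of the 7 members had a window in the table.

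Ephx1 encodes microsomal epoxide hydrolase, which sits in the endoplasmic reticulum beside the P450 enzymes and hydrolyses arene and alkene oxides. Its log2 ratio was 3.17, 2.91, 3.21 and 3.35 on control replicates 5 to 8. On mixture replicates 1 to 4 it was 4.15, 3.79, 4.65 and 3.95. The lowest mixture array thus exceeded the highest control array. The groups did not overlap for 1.29% of tested probes, 0.798% with the mixture group higher and 0.491% with it lower. Mixture replicate 3 was the highest and control replicate 6 the lowest. The group means were 3.16 ± 0.19 in control and 4.14 ± 0.38 (SD, n = 4 each) in the mixture group. Livers of the mixture group were higher by 0.98 on the log2 scale (SE 0.16, 95% interval 0.62 to 1.34), or 1.97-fold (1.53-fold to 2.52-fold). It ranked 12th of 11406 probes by p, with an adjusted p of 0.140 in limma, and 20 probes (0.175%) differed by at least as much in the same direction. It was 0.68 within slide column 1 and 1.28 within column 2. Without slide column in the fit the adjusted p was 1.00.

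Ephx2 encodes soluble epoxide hydrolase, which acts on fatty acid epoxides in the cytosol and peroxisomes and is classically raised by PPAR-alpha activators rather than by the sensors above. Its log2 ratio was 0.96, 1.55, 1.07 and 2.05 on control replicates 5 to 8 and 0.87, 1.21, 1.69 and 1.48 on mixture replicates 1 to 4. The groups overlapped throughout, with the highest and the next to lowest values both in control livers. The means were 1.41 ± 0.50 in control and 1.31 ± 0.35 (SD, n = 4 each) in the mixture group. The difference was -0.09 (SE 0.22, 95% interval -0.59 to 0.41, adjusted p = 0.965 in limma). That interval spans 0.662-fold to 1.32-fold, so changes inside it remain possible. It is not a limit of detection, and larger changes could also have missed the adjusted threshold. The sign depended on single arrays and on the column. The difference was 0.33 in column 1 and -0.52 in column 2, 0.09 without control replicate 8 and 0.15 without mixture replicate 1. The reference signal of Ephx2 was not well above background on any of the 8 arrays, so its ratio has a weak denominator. The liver signal taken alone, without the reference, gave -0.09 (SE 0.11, adjusted p = 0.920 in limma).

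Akr7a3 encodes the aflatoxin aldehyde reductase, which in the rat is known for its induction by antioxidants that protect against aflatoxin. Its log2 ratio was -0.50, -1.12, 0.03 and -0.69 on control replicates 5 to 8. On mixture replicates 1 to 4 it was 0.18, 0.75, 0.80 and 1.12. The groups did not overlap. The values nearest to each other, those of control replicate 7 and mixture replicate 1, came from different slide columns. The means were -0.57 ± 0.48 in control and 0.71 ± 0.39 (SD, n = 4 each) in the mixture group. The difference of 1.28 (SE 0.17, 95% interval 0.89 to 1.67, adjusted p = 0.0426 in limma) was the largest among the members and ranked 9th of 11406 probes by p. It corresponds to 2.43-fold, with an interval of 1.85-fold to 3.19-fold.

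The size of the Akr7a3 difference was similar in both slide columns, at 1.17 in column 1 and 1.39 in column 2. Its level itself was lower in column 2 by 0.56, the opposite direction to the other members, whose ratios were 0.18 to 0.36 higher there. With that column difference left in the spread, the standard error was 0.26 and the adjusted p 1.00. The call was narrow also with slide column fitted. It was kept without control replicate 7 (adjusted p = 0.0347 in limma) and without mixture replicate 2 (0.0410). It was lost without control replicate 5 (0.208), 6 (0.184) or 8 (0.104) and without mixture replicate 1 (0.0692), 3 (0.124) or 4 (0.159). The size of the difference stayed between 1.14 and 1.41 in those fits. With 1 probe kept for each gene, in place of every probe, the adjusted p was 0.0574.

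Akr7a2, the paralog next to it, encodes a reductase of succinic semialdehyde and other aldehydes that most tissues express. Its log2 ratio was 1.27, 1.38, 1.29 and 1.55 on control replicates 5 to 8 and 1.75, 1.46, 1.86 and 1.56 on mixture replicates 1 to 4. In each slide column both mixture arrays lay above both control arrays, while across columns control replicate 8 exceeded mixture replicate 2. How many of all tested probes separated in this way within columns was not counted. The means were 1.37 ± 0.13 (SD, n = 4) and 1.66 ± 0.18 (SD, n = 4). The difference was 0.29 (SE 0.07, 95% interval 0.13 to 0.45), or 1.22-fold, with an unadjusted p of 0.00266 and an adjusted p of 0.393 in limma. It was 0.23 in column 1 and 0.35 in column 2. Akr7a2 was thus the constitutive member with the largest difference, although it did not pass the threshold.

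Akr1a1 encodes aldehyde reductase, which in rats also serves vitamin C synthesis by reducing glucuronate. It was measured by 10 spots on each array, where the other members had 2, and 9 of its 80 spots were marked as outliers and left out. Its log2 ratio was -0.34, -0.04, -0.05 and 0.31 on control replicates 5 to 8 and 0.12, -0.08, 0.21 and -0.02 on mixture replicates 1 to 4. All mixture values lay within the range of the control values. The means were -0.03 ± 0.27 (SD, n = 4) and 0.06 ± 0.13 (SD, n = 4), a difference of 0.09 (SE 0.10, 95% interval -0.13 to 0.31, adjusted p = 0.925 in limma).

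Cbr1 encodes the main cytosolic carbonyl reductase, which reduces quinones, prostaglandins and drugs such as anthracyclines. Its log2 ratio was -1.61, -1.28, -1.64 and -1.32 on control replicates 5 to 8 and -1.30, -1.50, -1.18 and -1.52 on mixture replicates 1 to 4. These values followed the slide column more than the group: the column means differed by 0.30 and the group means by 0.09 (SE 0.06, 95% interval -0.06 to 0.23, adjusted p = 0.897 in limma). The upper bound corresponds to 1.17-fold. The group means were -1.46 ± 0.19 in control and -1.37 ± 0.16 (SD, n = 4 each) in the mixture group.

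Cbr3, a carbonyl reductase related to Cbr1 and a known NRF2 target in other systems, was not well above background in liver in either group. Its Cy5 signal was 88.8, 86.5, 91.8 and 102 intensity units on control replicates 5 to 8 and 89.5, 86.5, 92.5 and 87.3 on mixture replicates 1 to 4, over median backgrounds of 68 to 73. Of its 2 spots, 1 was well above background on 7 arrays and none on mixture replicate 2. No fold is given for it. The inducible class was therefore represented by 2 measured genes. The reference RNA from cell lines did carry Cbr3, with a net Cy3 signal of 219 ± 27.8 on control and 227 ± 21.4 (SD, n = 4 each) on mixture arrays.

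**Figure D2:**
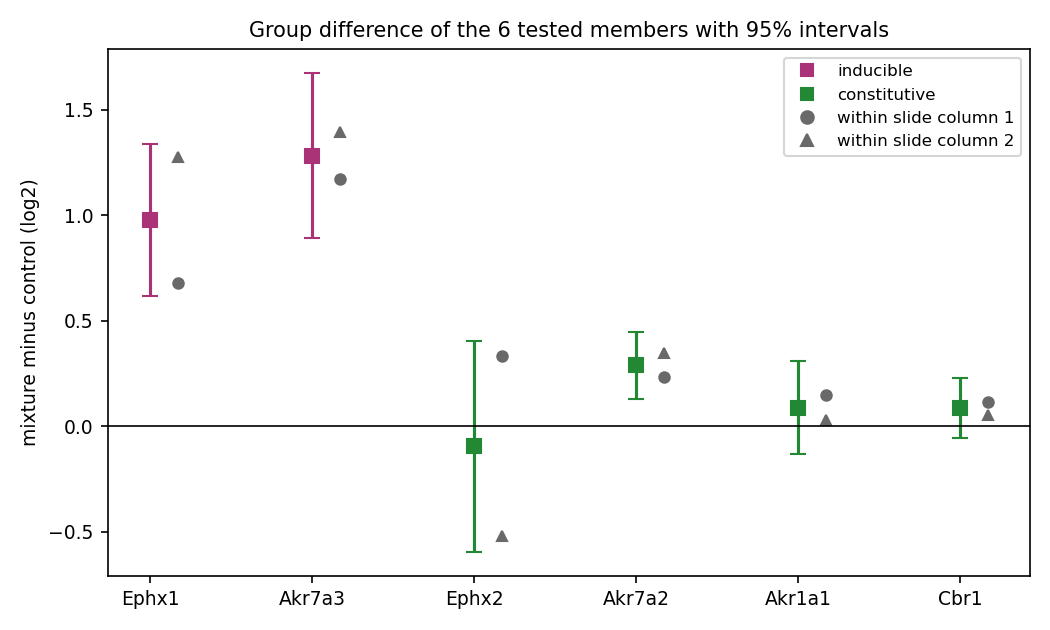
Mixture minus control (log2, y axis) for the 6 tested genes, as squares with 95% intervals from the fit with slide column; grey symbols give the difference within each column. The intervals of Ephx1, Akr7a3 and Akr7a2 lie above 0, and those of Ephx2, Akr1a1 and Cbr1 include it; the intervals are not adjusted for the number of probes.

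Set side by side, the 2 measured inducible genes differed by 0.98 and 1.28, and the 4 constitutive genes by -0.09 to 0.29, with a median of 0.09. The median over all tested probes was -0.01. The direct comparison was made within 2 families, as the difference between the log2 ratios of an inducible and a constitutive member on the same array. Both were tested by an exact two-sided permutation test over the 70 splits of the arrays, whose smallest possible p is 0.0286. That test takes no account of slide column, while the intervals come from a linear fit that includes it. The third family could not be tested because of Cbr3.

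Only the change of such a difference between the groups can be read, since levels of different probes are not comparable. Ephx1 minus Ephx2 was 1.75 ± 0.49 in control and 2.82 ± 0.37 (SD, n = 4 each) in the mixture group, with the reference of Ephx2 not well above background on any array. The change was 1.07 (95% interval 0.21 to 1.93), with an exact p of 0.0286, or 0.0571 adjusted over the 2 families. The control values spanned 1.30 to 2.22 and the mixture values 2.47 to 3.28, without overlap. It was unequal between slide columns, 0.34 in column 1 and 1.80 in column 2. Akr7a3 minus Akr7a2 was -1.94 ± 0.54 in control and -0.95 ± 0.49 (SD, n = 4 each) in the mixture group. It changed by 0.99 (95% interval 0.53 to 1.46), with an exact p of 0.0571, also 0.0571 after adjustment. The change was 0.94 in column 1 and 1.05 in column 2, but across columns the groups overlapped. Neither family passed 0.05 after adjustment, and the genes had been chosen with earlier results of these data known.

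**Figure D3:**
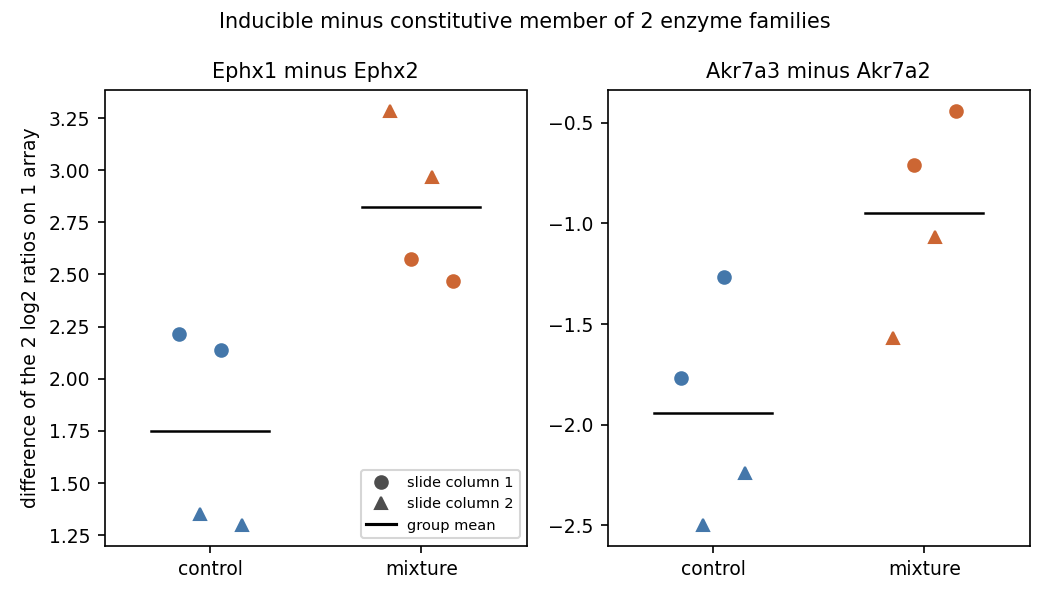
Difference between the log2 ratios of 2 paralogs on the same array (y axis) in control and mixture arrays; circles are slide column 1, triangles slide column 2, lines the group means. Ephx1 minus Ephx2 does not overlap between the groups, while Akr7a3 minus Akr7a2 overlaps across columns and separates within each.

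The channels were also examined separately, since all arrays carried the same reference. For Akr7a3 the net Cy5 signal was 253 ± 104 in control and 754 ± 314 (SD, n = 4 each) in the mixture group, while its Cy3 signal was 1058 ± 54.0 (SD, n = 4) and 1070 ± 66.3 (SD, n = 4). For Ephx1 the net Cy5 signal was 483 ± 106 (SD, n = 4) and 1178 ± 564 (SD, n = 4), and its Cy3 signal 101 ± 9.15 (SD, n = 4) and 119 ± 15.1 (SD, n = 4). These net signals were not normalised between arrays, so they do not give the fold differences stated above. For Akr1a1 the net Cy5 signal was 1052 ± 245 in control and 1194 ± 304 (SD, n = 4 each) in the mixture group. The difference between the groups thus lay in the liver channel for Akr7a3 and Ephx1. The Cy3 difference of Ephx1, 0.13 on the log2 scale (SE 0.04, adjusted p = 0.999, unadjusted p = 0.0168 in limma), had the same sign, so the ratio is smaller than the liver signal alone gives. In Cy5 alone, after quantile normalisation, Ephx1 differed by 1.06 (SE 0.15, adjusted p = 0.0362 in limma) and Akr7a3 by 1.32 (SE 0.17, adjusted p = 0.0263 in limma). Both then passed, against 0.149% of probes (17 of 11406). In Cy5 alone Akr7a2 was higher by 0.28 (SE 0.06, adjusted p = 0.147 in limma) and did not pass. Its groups did not overlap in Cy5 alone, while they overlapped in the ratio. How many of all tested probes did not overlap in Cy5 alone was not counted.

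**Figure D4:**
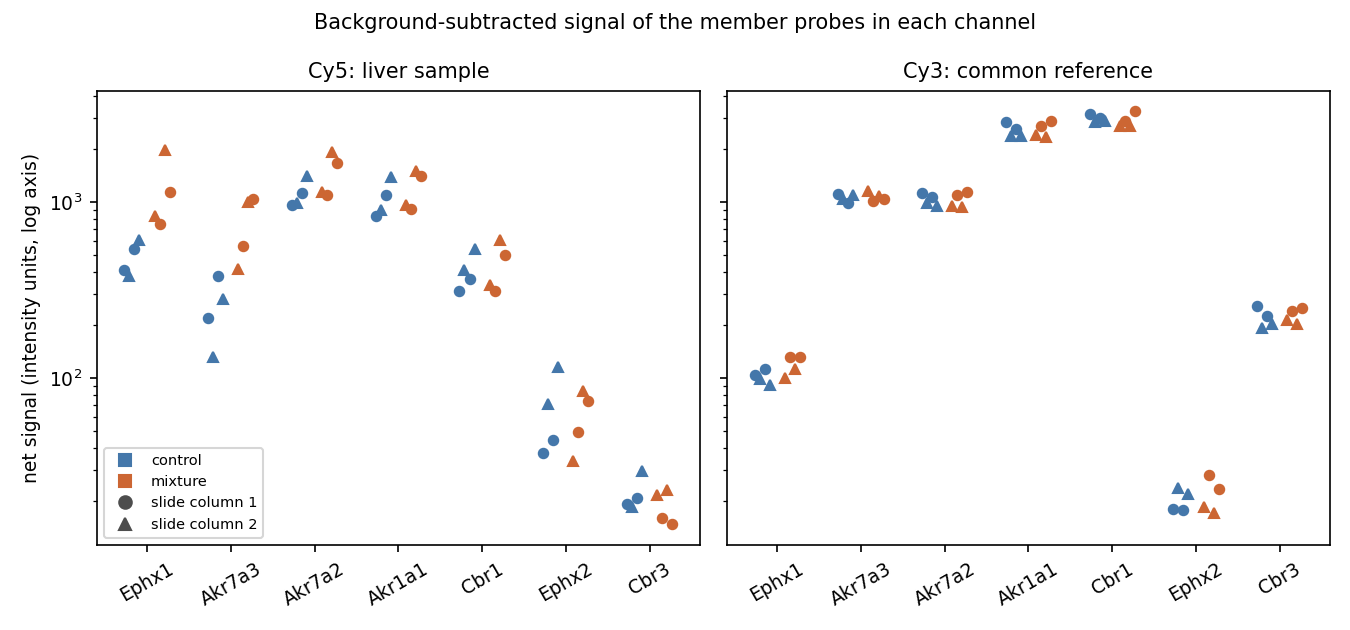
Background-subtracted signal (intensity units, log axis) of the 7 member probes in the liver channel, Cy5, and the reference channel, Cy3, with control arrays in blue, mixture arrays in orange, circles for slide column 1 and triangles for column 2. The signals were not normalised between arrays. In Cy5 the mixture arrays of Ephx1 and Akr7a3 are shifted upwards, and Cbr3 is near background; levels of different probes are not comparable.

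The members were also compared with one another over the 8 arrays, each log2 ratio less the mean of its slide column. These correlations are descriptions: the arrays share a slide and a reference, and the group difference is part of them. Ephx1, Akr7a2 and Akr7a3 ran together, with Pearson r of 0.99 for Ephx1 and Akr7a2, 0.98 for Akr7a2 and Akr7a3, and 0.96 for Ephx1 and Akr7a3. With the group means removed as well, r was 0.94, 0.84 and 0.77. Ephx2 had r of -0.07, 0.00 and 0.05 with the same 3 genes before and 0.14, 0.32 and 0.51 after the group means were removed.

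Among 6937 named genes, those most like Ephx1 were the glutathione transferase Gsta1 (r = 0.999), the anion transporter Slc17a3 (r = 0.992) and Akr7a2. Slc17a3, Ephx1 and Gsta1 were also the nearest to Akr7a2, with r of 0.997, 0.989 and 0.989. Nearest to Akr7a3 were the carboxylesterase Ces2h (r = 0.98), Akr7a2 (r = 0.975) and the glutathione transferase Gstt1 (r = 0.972). The nearest genes of the other members were Foxe1, Wwp1 and Cox7a2l for Ephx2, Mpc1, Hps1 and Fahd2a for Akr1a1, and Evl, Rapgef2 and Vsir for Cbr1, with r of 0.966 to 0.987. These are the highest of many correlations over 8 arrays and are high by selection.

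No other measured enzyme of the lists of aldo-keto reductases, short-chain dehydrogenases, epoxide hydrolases and aldehyde dehydrogenases passed the threshold. Of 9 measured further aldo-keto reductases, 4 were higher and 5 lower in the mixture group. In limma 0 passed the threshold and 2 reached an unadjusted p below 0.05, against 6.37% of all tested probes. Those with the smallest p were the bile acid reductase Akr1d1 at 0.52 (SE 0.16), Akr1c19 at -0.27 (SE 0.12) and Akr1c12 at 0.31 (SE 0.17). Of 22 measured short-chain dehydrogenases, 8 were higher and 14 lower, against 46.9% of all tested probes higher. In limma 0 passed and 3 reached an unadjusted p below 0.05, against the same 6.37%. Decr1, a mitochondrial enzyme of fatty acid oxidation, was at -0.27 (SE 0.09), the prostaglandin dehydrogenase Hpgd at 0.33 (SE 0.13) and the lipid droplet protein Hsd17b13 at -0.19 (SE 0.08). The medians of these lists were -0.04 and -0.03, near the median of all probes. Of the other epoxide hydrolase list, Mest was at 0.08 (SE 0.11) and Lta4h, leukotriene A4 hydrolase, at -0.02 (SE 0.07), while Ephx3 and Ephx4 did not pass the filter on dim probes.

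Aldehyde dehydrogenases oxidise the aldehydes that these reductases reduce. Of 13 measured, 9 were higher and 4 lower, with a median of 0.03, where 46.9% of all tested probes were higher. In limma 0 passed and 3 reached an unadjusted p below 0.05, where 6.37% of all tested probes did. The retinal dehydrogenase Aldh1a1 had the smallest p and was at 1.14 (SE 0.30, adjusted p = 0.40 in limma). Its groups did not overlap, where 0.798% of all tested probes did not overlap with the mixture group higher. Aldh1b1 was at -0.25 (SE 0.07) and Aldh1l1, a folate enzyme, at 0.25 (SE 0.10).

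Most measured targets of the sensors, some of which are in more than one list, were higher in the mixture group, against 46.9% of all tested probes. Of 23 measured NRF2 targets, 21 were higher, with a median of 0.23. In limma 0 passed and 11 reached an unadjusted p below 0.05, against 6.37% of all probes. Examples were the exporter Abcc2 at 0.42 (SE 0.07), the glutathione peroxidase Gpx2 at 0.41 (SE 0.07) and Gsta1 at 0.49 (SE 0.09). Of 18 measured CAR and PXR targets, 15 were higher with a median of 0.43, and 9 reached an unadjusted p below 0.05, against the same 6.37%. Among these Cyp2b2 and Cyb5a passed, at 2.04 (SE 0.25, adjusted p = 0.0275 in limma) and 0.54 (SE 0.06, adjusted p = 0.0203 in limma). Cyp2c7 did not pass by the probe used for the list, at 1.63 (SE 0.25, adjusted p = 0.101 in limma), but 2 of its other probes did. Without slide column neither Cyp2b2 nor Cyb5a passed, and with it Cyp2b2 passed in 3 and Cyb5a in 2 of the 8 fits without 1 array. The CAR and PXR list was also uneven. Its 3 lower genes were Cyp3a2 at -0.24 (SE 0.17), Cyp3a18 at -0.06 (SE 0.25) and Por at -0.06 (SE 0.15). Cyp3a23-3a1 was at 0.08 (SE 0.13) and Cyp2a1 at 0.01 (SE 0.09), while Cyp3a9, Ces2c, Abcb1a and Abcc3 did not pass the filter on dim probes. Of 5 measured AhR targets, 4 were higher with a median of 0.51, and 3 reached an unadjusted p below 0.05, against the same 6.37%. The list was uneven, and Aldh3a1 was lower at -0.11 (SE 0.08). Nqo1 is also in the NRF2 list, and Cyp1b1 and Ahrr did not pass the filter on dim probes. Cyp1a1, the classic sign of AhR activation, rose by 4.04 (SE 0.31, adjusted p = 0.00314 in limma) and passed in all 8 fits without 1 array. The differences of Ephx1 and Akr7a3 lay above those of all 23 measured NRF2 targets, of which Nqo1 was the highest at 0.90 (SE 0.17). In the AhR list only Cyp1a1 lay above Ephx1 and Akr7a3. In the CAR and PXR list only Cyp2b2 and Cyp2c7 lay above both, and Aldh1a1 at 1.14 (SE 0.30) lay between Ephx1 and Akr7a3. All other measured genes of these lists lay below Ephx1. Whether Ephx1 and Akr7a3 differed from any of these genes was not tested. The lists had been chosen with earlier results of these data known.

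Ephx1 is known to be expressed more around the central vein of the liver lobule, and markers of lobule zones were examined beside it. In the mixture group 8 of 10 measured pericentral markers were higher, with a median of 0.10, and of 10 periportal markers 9 were lower, with a median of -0.17. Over all tested probes 46.9% were higher. None passed the threshold in limma, while 2 pericentral genes, both higher, and 3 periportal genes, all lower, reached an unadjusted p below 0.05, against 3.52% of probes higher and 2.86% lower. Lgr5, a pericentral marker, did not pass the filter. The mean log2 ratio of the pericentral list was 2.75 to 2.94 on control and 2.81 to 3.23 on mixture arrays, and that of the periportal list 4.59 to 4.74 and 4.30 to 4.62. Their part in the differences of Ephx1 and Akr7a3 was not tested. In bulk liver, a changed share of cells and a changed amount of RNA per cell cannot be told apart.

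**Figure D5:**
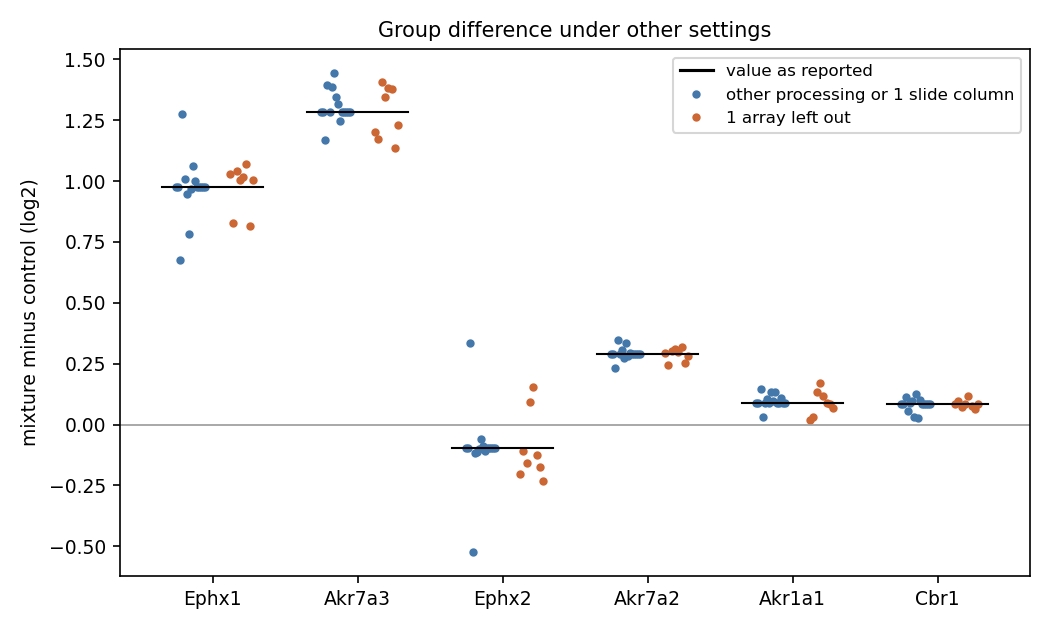
Mixture minus control (log2, y axis) for the 6 tested genes; black lines give the reported value, blue points other processing choices or a single slide column, and orange points fits without 1 array. All points of Ephx1 and Akr7a3 lie above 0, and those of Ephx2 fall on both sides of 0.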

How the data were processed

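Per the file headers, the authors' spot intensity values of both dyes were read with Agilent Feature Extraction 11.0.1.1. The deposited table of log2 ratios of Cy5 over Cy3 served as an alternative. No source used here says how the authors made it. It correlated with r of 0.997 to 0.998 with uncorrected loess ratios (slope 0.995 to 1.00), which settled scale and direction, and its column medians were -0.0389 to -0.0326, with the centring method unknown.

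In R 4.3.3 with limma 3.58.1, median signals were corrected with normexp (offset 50) and normalised by loess, with control spots given no weight. Between 771 and 956 outlier spots per array were left out and the spots of a probe averaged. Of 30367 probes, 18005 were named through RefSeq (GRCr8). A probe was tested if over 50% of its spots exceeded background clearly in Cy5 (the scanner's well-above-background mark) on at least 3 arrays of a group (11406 probes). Groups were compared with lmFit and eBayes, slide column as a block, and Benjamini-Hochberg adjustment over all tested probes; single-gene p-values are limma's. Intervals are at 95%, unadjusted. Fits were tested on simulated data.

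The members, the gene lists and the use of slide column as a block were chosen with earlier results of these data known, and the motifs and the promoters printed with the sequences seen. For each list, genes past the threshold were named, or the 3 with the smallest p, and further genes of the sensor lists to show their spread. For each member the 3 most similar genes were named, and 1 zone marker is not reported by name here. The Cbr3 and Cbr1 comparison was planned but not run, since Cbr3 was not measured. The alternatives were other backgrounds, normalisations, filters and blocks, and leaving out each array.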

Additional observations from a re-analysis of the deposited data

How the results depend on the processing

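The differences of Ephx1, Akr7a2, Akr7a3, Akr1a1 and Cbr1 kept their sign under all alternatives run, including within each slide column and without each array. Without 1 array they spanned 0.82 to 1.07 for Ephx1, 0.24 to 0.32 for Akr7a2, 1.14 to 1.41 for Akr7a3, 0.02 to 0.17 for Akr1a1 and 0.07 to 0.12 for Cbr1. Ephx2 spanned -0.23 to 0.15, turning to 0.09 without control replicate 8 and 0.15 without mixture replicate 1. Within columns 1 and 2, Ephx1 was at 0.68 and 1.28, Ephx2 at 0.33 and -0.52, and Ephx1 minus Ephx2 at 0.34 and 1.80. The cause was not tested.

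Akr7a3 lost its call at 1.28 without slide column (adjusted p = 1.00 in limma), with slide row as a block (1.00), with 1 probe per gene (0.0574), with a trended robust variance (0.0858) and, also at 1.28, without background correction (0.0666). It lost it at 1.38 with an offset of 16 (0.124), 1.44 from processed signals (0.144), 1.35 when centred on the median (0.384) and 1.25 from the deposited values (0.0599). It kept it in Cy5 alone (0.0263), with no filter (0.0297), with probes well above background on all 8 arrays (0.0449) and with outlier spots kept (0.0449). In Cy5 alone Ephx1 passed at 1.06 (0.0362), and both families passed the exact test, at 1.15 for Ephx1 minus Ephx2 and 1.03 for Akr7a3 minus Akr7a2 (adjusted p = 0.0286 each). Without 1 array these gaps spanned 0.86 to 1.24 and 0.88 to 1.11.

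The count of 9 probes was 1 without slide column, 4 with an offset of 16, 17 in Cy5 alone, 5 with 1 probe per gene and 5 when the variance was trended and robust. It was 0 in limma with slide row as a block (86 at an unadjusted p under 0.05) and 0 with processed signals (871). Without 1 array it spanned 1 to 16. Dim signals limit Cbr3 in the liver and Ephx2 in the reference. Replicate numbers run from 5 to 8 in the control group and from 1 to 4 in the mixture group, and no label pairs the pools. Each slide row held 1 control and 1 mixture array, in the order of these numbers: 5 with 1, 6 with 2, 7 with 3 and 8 with 4. The fit with slide row as a block, given above, therefore pairs the arrays by position on the slide and by replicate order alike.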

Other observations

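Markers of other liver cells gave the following values. The mixture group had higher values for all 7 measured Kupffer cell markers, with a median of 0.15, where 46.9% of all tested probes were higher. In limma 0 of them passed the threshold and 0 had an unadjusted p under 0.05. The mean log2 ratio of that list was 2.42 to 2.79 on control and 2.57 to 3.09 on mixture arrays. Of 10 hepatocyte markers 9 were lower, with a median of -0.13, and 2 had an unadjusted p under 0.05, against 2.86% of all tested probes in that direction: Fgb at -0.29 (SE 0.08) and Cps1 at -0.35 (SE 0.15). Of 4 measured cholangiocyte markers 2 were higher and 2 lower, and of 5 erythroid markers 3 were higher and 2 lower. Of 7 measured stellate cell markers 4 were higher and 3 lower. Des, at 0.19, was the 1 with an unadjusted p under 0.05, against 3.52% of all tested probes in that direction. Of 3 endothelial markers 2 were higher and 1 lower, and of 6 lymphocyte and neutrophil markers 2 were higher and 4 lower, with a median of -0.13.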
